A study of Mus musculus with 6 samples.

Results

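The genes described here drive the cell cycle and DNA replication. They were taken as a list of 36 gene symbols: 8 of the G1/S transition, 13 of replication licensing and DNA synthesis, and 15 of G2 and mitosis. A gene was measured when the array's annotation gave at least 1 probe set its symbol and no other, and 35 of the 36 met this among 12393 genes in all. The mitotic cyclin gene Ccnb1 had no such probe set, so its expression was not analysed here, though its promoter is among those searched below.

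RNA came from the tail end of mouse embryos aged 9.5 days post coitum, cut off behind the youngest somite at the level of the presomitic mesoderm, a piece that held all germ layers. Wild-type C57BL/6 embryos (Dll3+/+) were compared with embryos of the same background homozygous for the Dll3 allele tm1Rbe, also written Dll3neo/neo, in 3 biological replicate pools each, 1 Affymetrix MOE430A array per pool. The sources used here do not give the number of embryos per pool. Deposited values are ratios, described as each probe set over the median of its 6 arrays, which the values bear out for 92.8% of 22626 probe sets. These ratios set pools side by side for 1 gene and hold no absolute level, so whether the defining markers of the tissue are present cannot be read from them. Values below are the geometric mean of the ratios of a gene's probe sets, and differences are on the log2 scale, mutant minus wild type.

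Cells enter S phase when cyclin D and cyclin E kinases release E2F factors, which switch on genes for the replication machinery. Licensing loads the MCM helicase onto replication origins once per cycle, through CDC6 and CDT1, with geminin as the brake. Mitotic genes peak later, when FOXM1 and the MuvB complex act at their promoters. Cells of the embryonic tail divide rapidly as the axis lengthens, while neurons and differentiating muscle leave the cycle.

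Promoter letters were not used to choose the genes, but the motifs searched are known from cell cycle genes, so their shares are a description only. RefSeq promoters of build GRCm38.p6, from 250 bases before to 50 bases after a gene's start, were at hand for 28 of the 36 genes, with 30 starts. Both strands were searched for E2F letters (TTTGGCGC, TTTGCCGC, TTTCGCGC or TTTCCCGC), for the CCAAT box read by NF-Y, and for TTTGAA, the letters of the cell cycle genes homology region (CHR) that MuvB reads. The E2F letters stood in 6 of 12 starts of replication genes, 2 of 7 of G1/S genes and 1 of 11 of G2/M genes, against 2.26% of all 32851 starts in the table and 3.38% of the starts of genes tested on the arrays. CCAAT was present in all 11 G2/M starts, in 9 of 12 replication starts and in 4 of 7 G1/S starts, against 37.4% of all starts. TTTGAA was found in 8 of 11 G2/M starts, 1 of 12 replication starts and 0 of 7 G1/S starts, against 17.9% of all starts. A match is a description of the letters and not a measured binding site, and no match says only that these letters are not in this window.

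The stretches below run from 150 bases before the start to the base before it, 5′ to 3′ on the gene's strand, with the matched letters of any of these motifs in capitals, on either strand. Shown are the 2 genes of each group with the largest difference between wild-type pools 3 and 1, among those with 1 start in the table, and Cdk1, the 1 measured member whose genotypes did not overlap. They lie at chr10:128705052-128705201 (minus strand) for Cdk2, chr9:109875429-109875578 (plus) for Cdc25a, chr1:128359706-128359855 (minus) for Mcm6 and chr11:98908001-98908150 (plus) for Cdc6. The G2/M stretches lie at chr2:127831860-127832009 (minus) for Bub1, chr7:135716380-135716529 (minus) for Mki67 and chr10:69352913-69353062 (minus) for Cdk1.
Cdk2: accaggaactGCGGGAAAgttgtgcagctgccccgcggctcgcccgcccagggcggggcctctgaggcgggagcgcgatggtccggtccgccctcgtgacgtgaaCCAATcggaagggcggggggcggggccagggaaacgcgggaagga
Cdc25a: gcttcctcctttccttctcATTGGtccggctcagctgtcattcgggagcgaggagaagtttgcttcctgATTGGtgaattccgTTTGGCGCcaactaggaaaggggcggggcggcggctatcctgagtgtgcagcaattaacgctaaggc
Mcm6: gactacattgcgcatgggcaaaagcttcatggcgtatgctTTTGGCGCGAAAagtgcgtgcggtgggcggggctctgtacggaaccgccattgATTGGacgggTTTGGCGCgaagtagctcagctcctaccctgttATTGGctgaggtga
Cdc6: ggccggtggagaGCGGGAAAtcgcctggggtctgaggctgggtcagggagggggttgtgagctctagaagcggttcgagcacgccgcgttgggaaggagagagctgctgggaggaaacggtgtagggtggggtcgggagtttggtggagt
Bub1: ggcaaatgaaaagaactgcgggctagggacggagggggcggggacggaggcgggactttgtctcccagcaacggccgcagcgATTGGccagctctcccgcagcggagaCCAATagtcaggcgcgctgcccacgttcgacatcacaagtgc
Mki67: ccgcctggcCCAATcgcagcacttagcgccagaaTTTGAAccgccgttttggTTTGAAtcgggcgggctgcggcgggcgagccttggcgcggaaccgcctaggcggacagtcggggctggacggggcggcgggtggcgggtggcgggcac
Cdk1: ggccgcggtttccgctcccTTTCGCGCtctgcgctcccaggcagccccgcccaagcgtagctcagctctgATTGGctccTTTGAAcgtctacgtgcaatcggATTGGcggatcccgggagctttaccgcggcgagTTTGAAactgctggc

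In Mcm6 the E2F letters occur at -110, at -106 on the other strand, overlapping the match before it, and at -47, counted in bases from the start. Cdk1 has the E2F letters at -131, CCAAT on the other strand at -80 and at -48, and TTTGAA at -71 and -15. Mki67 has TTTGAA at -116 and -98, and Bub1 has CCAAT on both strands but no TTTGAA in its window.

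The genotypes were compared to find genes of this tissue that Dll3 mutation disrupts. Dll3 itself, a divergent Notch ligand gene, had wild-type ratios of 1.46, 1.63 and 2.01 and mutant ratios of 0.480, 0.476 and 0.537 (log2 difference -1.76, SE 0.131, limma adjusted p = 0.00132), with no overlap. None of the 35 measured members passed the test over all genes (limma adjusted p = 0.99998 for all 35), where 1 of 12393 genes, Dll3, or 0.00807%, passed. None of the 35 was under 0.05 in limma before adjustment either, a level that 159 genes, or 1.28%, reached. The 95% interval of the difference lay within 1.5-fold in either direction for 34 of the 35 members and within 2-fold for all 35, so a change of 2-fold or more lay outside the interval of each. In such bulk RNA, fewer cells of a type and less RNA per cell cannot be told apart. The p-values set a difference against the spread between pools of a genotype, moderated by the spread over all genes.

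By sign, 23 of the 35 members were lower in the mutant and 12 higher, where 48.9% of all genes were lower. The median log2 difference of the members was -0.03, against 0.0028 over all genes. Licensing and synthesis genes were lower in 10 of 13 (median -0.05), G2/M genes in 10 of 14 (median -0.02, turning to 0.04 with quantile normalization) and G1/S genes in 3 of 8 (median 0.0083, turning to -0.01 with quantile normalization). Array weights turned the median of the members to 0.02, with 15 of 35 lower (47.1% of all genes). Leaving out wild-type pool 3 or mutant pool 1 also turned the sign of the median of all members. With any other single pool left out, 25 to 29 of 35 members were lower (48.3% to 53.7% of all genes). Without wild-type pool 3, 7 of 35 members were lower (47.0% of all genes) and the median was 0.04. Of the groups, 3 of 13 replication genes, 2 of 14 G2/M genes and 2 of 8 G1/S genes were then lower. With mutant pool 1 left out, 14 of 35 were lower (43.9% of all genes) and the median was 0.02. With both of these pools left out, a choice made after the values were seen, 5 of 35 were lower, with a median of 0.09, where 44.5% of all genes were lower.

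**Figure D1:**
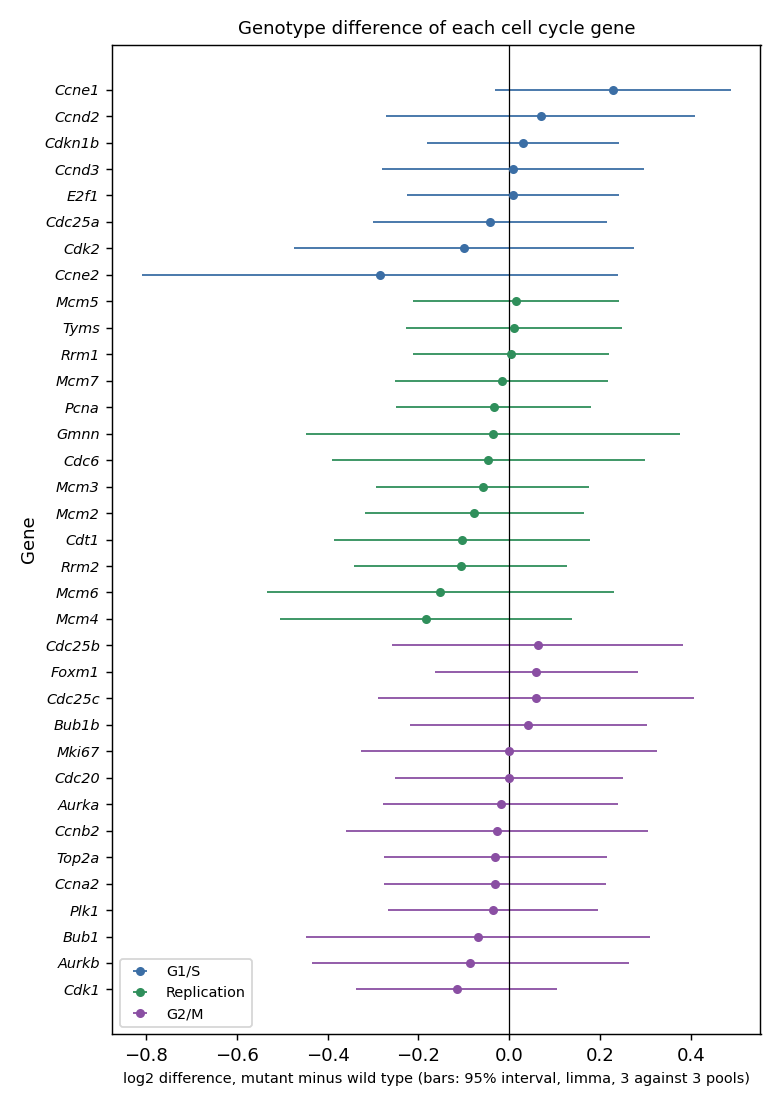
Log2 difference between mutant and wild type (x axis) for each of the 35 measured members (y axis), coloured by group and sorted within it; points are limma estimates from 3 against 3 pools and bars their 95% intervals. Every interval includes 0, the widest is that of Ccne2 (-0.81 to 0.24), and Ccne1 (-0.03 to 0.49) comes closest to leaving 0 out.

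**Figure D2:**
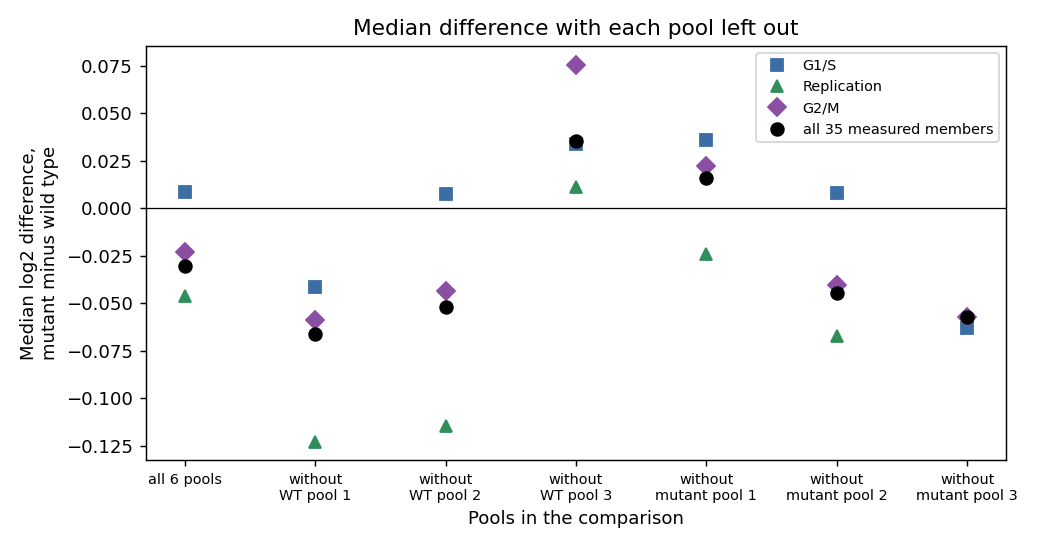
Median log2 difference, mutant minus wild type (y axis), of the G1/S, replication and G2/M members and of all 35 measured members, with all 6 pools and with each pool left out (x axis). The median of all members is -0.03 with 6 pools, 0.04 without wild-type pool 3, and 0.02 when mutant pool 1 is left out. It stays negative with any other single pool left out.

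Among G1/S genes, the cyclin E genes, whose products activate CDK2 at S phase entry, had the largest differences of the group and opposite signs. Ccne1 was at 0.841, 0.818 and 1.02 in wild-type pools 1, 2 and 3 and at 0.984, 1.12 and 1.02 in mutant pools 1, 2 and 3. Wild-type pools 1 and 2 lay below every mutant pool, while wild-type pool 3 lay among them (log2 difference 0.23, SE 0.117, 95% interval -0.03 to 0.49). Ccne2 was at 0.855, 1.07 and 1.83 in the wild type and at 0.907, 1.11 and 0.926 in the mutant. Wild-type pool 3 stood far above the others, and the log2 difference of -0.28 was 0.03 without that pool and -0.52 without wild-type pool 1.

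Cdk2, the kinase that cyclin E binds, was at 0.809, 1.03 and 1.36 in the wild type and at 0.981, 0.922 and 1.02 in the mutant (log2 difference -0.10, and 0.09 without wild-type pool 3). All 3 mutant pools lay between wild-type pools 1 and 3. The CDK-activating phosphatase gene Cdc25a was at 0.913, 0.990 and 1.12 in the wild type and at 0.885, 1.02 and 1.02 in the mutant (log2 difference -0.04). That is the mean of probe sets of opposite sign, at -0.17 and 0.09. Ccnd2, the cyclin D gene of many progenitor cells, was at 0.796, 0.963 and 1.20 in the wild type and at 0.912, 1.12 and 1.03 in the mutant (log2 difference 0.07, and 0.22 without wild-type pool 3). It had 7 probe sets, whose differences ran from -0.19 to 0.21, so its sign differed between probe sets. Cdkn1b, which encodes the CDK inhibitor p27, varied little: it was at 1.03, 0.961 and 0.998 in the wild type and at 0.995, 1.04 and 1.02 in the mutant (log2 difference 0.03). Its probe sets differed in sign, at -0.07 and 0.13. The remaining members, the cyclin gene Ccnd3 (0.0087) and the transcription factor gene E2f1 (0.0080), had differences close to 0.

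Licensing genes were lower in the mutant in 8 of 9 (48.9% of all genes), with a median log2 difference of -0.06, but in 1 of 9, Mcm4, when wild-type pool 3 was left out (47.0% of all genes; median 0.01). Mcm4, a helicase subunit gene, was at 0.979, 0.969 and 1.35 in wild-type pools 1, 2 and 3 and at 0.871, 1.02 and 0.986 in the mutant. Wild-type pool 3 stood above all others and mutant pool 1 below, and the difference of -0.18 was -0.02 without wild-type pool 3. Of its probe sets, the _x_at set gave -0.35 and the other gave -0.02. Mcm6 was at 0.841, 0.997 and 1.29 in the wild type and at 0.763, 1.01 and 1.02 in the mutant (log2 difference -0.15, -0.01 when mutant pool 1 was left out and 0.01 when wild-type pool 3 was). Here too wild-type pool 3 was highest and mutant pool 1 lowest, but its probe sets differed. The _x_at set was at 0.582 in mutant pool 1 (log2 difference -0.28). The other was at 1.0 there, above wild-type pools 1 and 2 at 0.917 and 0.972 (log2 difference -0.02). Mcm5 was at 0.957, 0.989 and 1.07 in the wild type and at 0.960, 1.08 and 1.01 in the mutant (log2 difference 0.01), and its genotypes overlapped throughout.

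The other helicase subunits Mcm2, Mcm3 and Mcm7 had differences of -0.08, -0.06 and -0.02. The loader genes Cdc6 and Cdt1 had -0.05 and -0.10, and the geminin gene Gmnn had -0.04. Gmnn was at 0.843, 0.890 and 1.46 in the wild type and at 1.0, 1.01 and 0.997 in the mutant, so its mutant pools were nearly equal while wild-type pool 3 stood far above wild-type pools 1 and 2. Its difference was 0.21 without wild-type pool 3.

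Genes for nucleotide supply and DNA synthesis had differences from -0.11 to 0.0099. Rrm2, the regulated subunit of ribonucleotide reductase, was at 0.957, 1.01 and 1.12 in the wild type and at 1.0, 0.903 and 0.956 in the mutant (log2 difference -0.11), with overlapping genotypes. Its partner subunit gene Rrm1 was at 0.949, 0.990 and 1.04 in the wild type and at 1.01, 0.963 and 1.01 in the mutant (log2 difference 0.0045). Tyms, thymidylate synthase, was at 1.04, 0.882 and 0.879 in the wild type and at 0.921, 0.934 and 0.960 in the mutant (log2 difference 0.0099). It was the 1 replication gene lowest in wild-type pool 3 and highest in wild-type pool 1. Pcna, the sliding clamp of the polymerases, had a difference of -0.03. Probe sets differed in sign for Rrm1 (0.07 and -0.06), Tyms (-0.15, 0.12 and 0.06) and Rrm2 (-0.12, -0.22 and 0.02).

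Of the G2/M genes, Cdk1, the mitotic kinase, was the 1 member without overlap, where 4.95% of all genes had none. It was at 1.0, 1.04 and 1.11 in the wild type and at 0.996, 0.996 and 0.925 in the mutant (log2 difference -0.12, SE 0.0991, 95% interval -0.34 to 0.11). The gap between the lowest wild-type and the highest mutant pool was small, and with single pools left out the difference ran from -0.15 to -0.07. Aurkb, the chromosomal passenger kinase, was at 0.873, 0.972 and 1.30 in the wild type and at 0.857, 0.991 and 1.09 in the mutant (log2 difference -0.09, and 0.08 without wild-type pool 3). Bub1, a spindle checkpoint kinase, was at 0.884, 0.995 and 1.45 in the wild type and at 0.944, 1.08 and 1.08 in the mutant (log2 difference -0.07, and 0.14 without wild-type pool 3). In both genes the whole mutant range lay within the wild-type range or just below its lowest pool.

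The genes of the phosphatases that activate CDK1 had positive differences, none past the test. Cdc25b was at 0.843, 1.01 and 0.990 in the wild type and at 1.06, 1.13 and 0.802 in the mutant (log2 difference 0.06), with mutant pool 3 below every other pool. Cdc25c was at 0.824, 0.906 and 1.26 in the wild type and at 0.932, 1.07 and 1.07 in the mutant (log2 difference 0.06, and 0.24 without wild-type pool 3). Foxm1, the transcription factor of G2/M genes, was at 0.975, 0.948 and 0.886 in the wild type and at 1.03, 0.953 and 0.939 in the mutant (log2 difference 0.06). It was lowest in wild-type pool 3, the pool in which most of the mitotic genes were highest. The remaining 8 measured G2/M genes lay between -0.04 for the kinase Plk1 and 0.04 for the checkpoint kinase Bub1b. Mki67, the proliferation antigen, was at -7.0e-04 and Cdc20, the activator of the anaphase-promoting complex, at -9.0e-04.

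**Figure D3:**
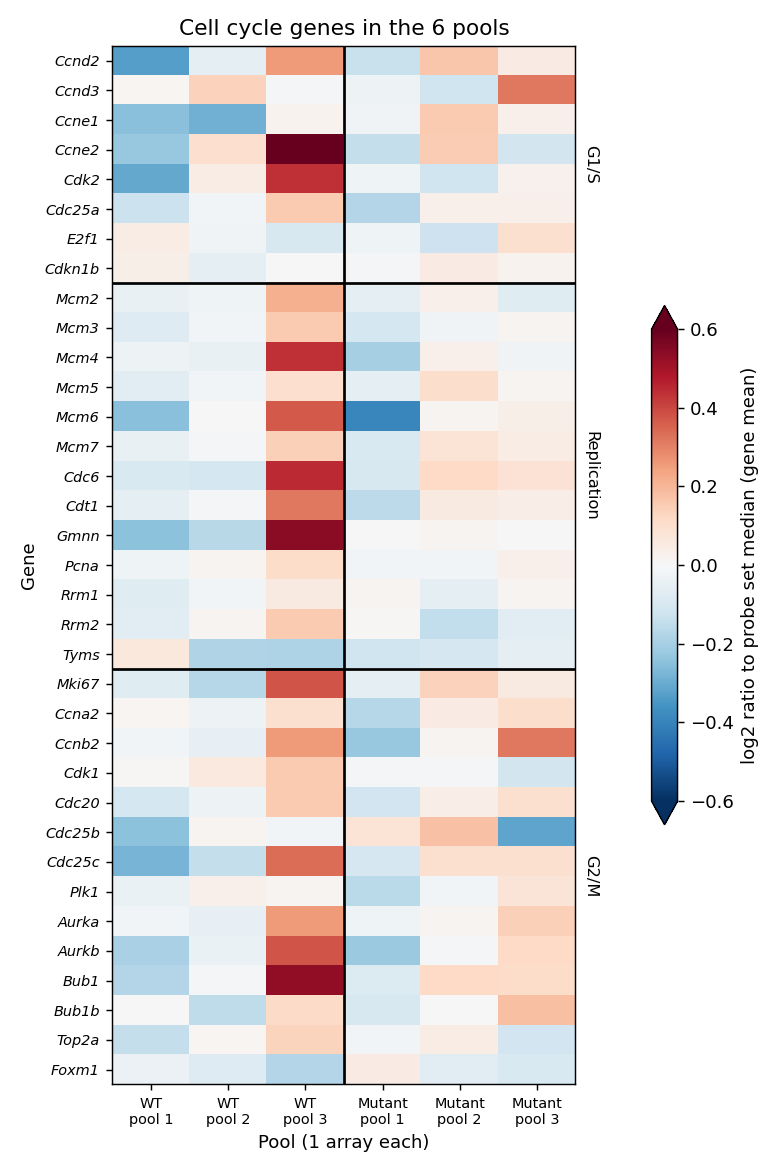
Log2 ratio to the probe set median (colour, gene means) of the 35 measured members (rows, by group) in the 6 pools (columns, 1 array each); colours saturate at 0.6. Wild-type pool 3 is the highest pool for 23 of 35 members, and mutant pool 1 the lowest for 11.

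Pools of the same genotype were compared as a description, since each pool is 1 array and a difference between pools has no test. Wild-type pool 3 was the highest of the 6 pools for 23 of the 35 members, where it was highest for 34.4% of all genes. It was above wild-type pool 1 for 30 members (52.5% of all genes) and above wild-type pool 2 for 29 (52.7% of all genes). Wild-type pool 1 was the lowest of the 6 pools for 10 of 35 members (21.3% of all genes). Medians over the members ran from -0.06 in wild-type pool 1 through -0.02 in pool 2 to 0.16 in pool 3, where the medians of all genes were -0.03, -0.01 and -0.0072. Over the members the median gap between wild-type pools 3 and 1 was 0.26, or 1.20-fold, against 0.03 over all genes.

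Wild-type pool 3 was also the most dispersed array, with an SD of 0.274 over the log2 values of all genes against 0.139 to 0.196 in the other pools, and it was the lowest pool for 32.6% of all genes. Among members it was the lowest for 2 of 35, Tyms and Foxm1. Quantile normalization, applied to this pattern after it was seen, which gives all arrays the same spread, left wild-type pool 3 highest for 17 of 35 members (18.2% of all genes) and took the median of the members there to 0.07 and their gap to wild-type pool 1 to 0.12. The pool was above wild-type pool 1 for 30 of 35 members with this scaling too.

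All 9 licensing genes were higher in wild-type pool 3 than in wild-type pools 1 and 2, by a median of 0.37 over pool 1 and of 0.32 over pool 2. Gmnn had the widest gap among them, 1.73-fold between wild-type pools 3 and 1, and Mcm5 had the smallest, 1.12-fold. G2/M genes were above wild-type pool 1 in 13 of 14, by a median of 0.27, with Bub1 the widest at 1.64-fold. G1/S genes were split: Ccne2 (2.15-fold), Cdk2 (1.68-fold), Ccnd2 (1.5-fold), Cdc25a (1.22-fold) and Ccne1 (1.21-fold) were higher in pool 3 than in pool 1, and Ccnd3, E2f1 and Cdkn1b were lower. Tests of a difference between these groups were not made.

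**Figure D4:**
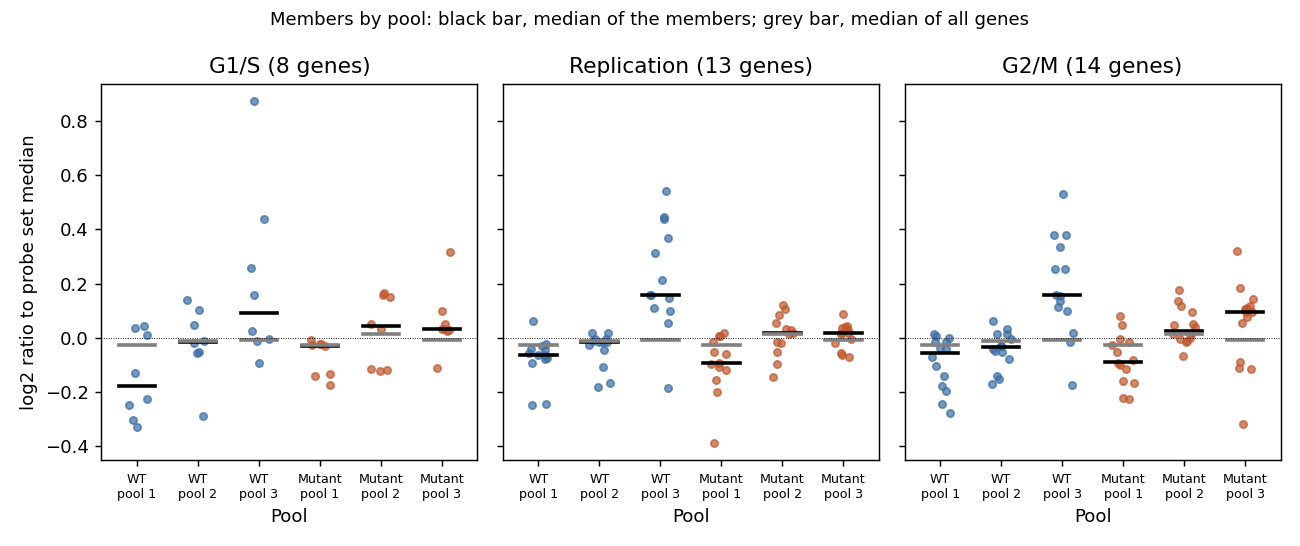
Log2 ratio to the probe set median (y axis) of each member in each pool (x axis) for the G1/S, replication and G2/M groups; points are genes, blue in the wild type and orange in the mutant, black bars the median of the members and grey bars the median of all genes. In wild-type pool 3 the black bars stand at 0.09, 0.16 and 0.16, above the grey bar at -0.0072.

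Among mutant pools, pool 1 was low. Medians over the members were -0.08 in mutant pool 1 and 0.03 in each of the others. Mutant pool 1 was the lowest of the 6 pools for 11 of 35 members, where it was lowest for 16.9% of all genes. Members were higher in mutant pool 2 than in mutant pool 1 in 27 of 35 (60.9% of all genes) and higher in mutant pool 3 than in mutant pool 1 in 27 of 35 (53.6% of all genes). All 6 MCM subunit genes were below 1 in mutant pool 1, Mcm6 the furthest at 0.763, and also in wild-type pools 1 and 2. Of all genes, 38.7%, 40.9% and 43.1% were above 1 in these pools. Mutant pool 1 was the lowest of the 6 pools for 4 of 6 MCM genes (16.9% of all genes). For each of these, Mcm3, Mcm4, Mcm6 and Mcm7, it was alone the lowest pool only in the _x_at probe set. In mutant pool 1, 5 of 35 members (Gmnn, Rrm1, Rrm2, Cdc25b and Foxm1) had positive log2 values, where 38.7% of all genes did. In wild-type pool 1, 6 of 35 members did (40.9% of all genes). The SD among wild-type pools exceeded that among mutant pools for 27 of 35 members, where it did so for 67.1% of all genes, and for all 13 replication genes.

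The array holds 70 probe sets for the 35 members, and the pattern of wild-type pool 3 was not equally clear in all kinds. Names ending in _s_at or _x_at mark probes that can read related transcripts, and 13 of these 16 were highest in wild-type pool 3, where 44.7% of all such probe sets were. The other 54 probe sets were highest there in 23, where 32.5% of all such probe sets were, and 43 of the 54 were higher in wild-type pool 3 than in wild-type pool 1 (51.3% of all such probe sets). Aurkb shows the spread: its _s_at set was at 0.735 in wild-type pool 1 and at 1.54 in wild-type pool 3, and its _x_at set at 1.04 and 1.09. With the _s_at and _x_at probe sets left out, 20 of the 34 members that remained were highest in wild-type pool 3 (33.3% of all genes). Of the 19 members with more than 1 probe set, 12 had probe sets of opposite sign in the genotype comparison. The share over all genes was not counted, so this only describes these members.

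Other genes of the cell cycle, 114 measured of a list of 130, were set beside the members. None passed the test over all genes (limma adjusted p = 0.99998 for all 114), 3 were under 0.05 before adjustment (1.28% of all genes), and 5 had no overlap between genotypes (4.95% of all genes). By sign 78 of 114 were lower in the mutant (48.9% of all genes), with a median log2 difference of -0.05. Without wild-type pool 3, 39 of 114 were lower (47.0% of all genes; median 0.04). Pola1, the catalytic subunit of DNA polymerase alpha, was at 1.02, 1.14 and 1.58 in the wild type and at 0.984, 0.933 and 0.948 in the mutant. Its 3 mutant pools lay below the 3 wild-type pools (log2 difference -0.36, and -0.17 without wild-type pool 3).

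Atr, the replication stress kinase, was at 0.990, 1.01 and 1.54 in the wild type and at 1.01, 0.865 and 0.709 in the mutant, with an overlap at mutant pool 1 (log2 difference -0.44, and -0.23 without wild-type pool 3). The nuclear lamin gene Lmnb1 had -0.36 and ran from 0.575 to 1.34 within the mutant. On the positive side, Cdkn1c, which encodes the CDK inhibitor p57, had wild-type ratios of 0.880, 0.920 and 0.967 and mutant ratios of 1.08, 1.18 and 1.03, again without overlap (log2 difference 0.25, 95% interval 0.02 to 0.48). The inhibitor gene Cdkn2d (0.20) and the DNA ligase gene Lig1 (0.16) followed, both with overlapping genotypes. Of the 114 genes, 78 were highest in wild-type pool 3 (34.4% of all genes), and their median there was 0.22.

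Markers of the cells that the dissected level can hold also differed between pools, and their part in the cell cycle values was not tested. In wild-type pools 1, 2 and 3 the median of 9 posterior presomitic mesoderm markers (of 10 listed) was 0.12, 0.01 and 0.25, and in the mutant -0.12, -0.23 and -0.03. Of these 9, 5 were highest in wild-type pool 3 (34.4% of all genes). Neural progenitor markers, 8 of 8 measured, had their highest pool median in wild-type pool 3 (0.14, with -0.06 in wild-type pool 1). The list was split: 4 of 8, Sox2, Sox3, Zic2 and Irx3, were highest there (34.4% of all genes). Pax6, Nkx6-1, Olig2 and Zic1 had negative log2 values there, from -0.05 to -0.10. Visceral yolk sac endoderm markers were all lower in wild-type pool 3 than in wild-type pool 1, 8 of 8, where 52.5% of all genes were higher. Their median was -0.26 in pool 3. Somite and sclerotome markers were at -0.32 in wild-type pool 1 and -0.22 in wild-type pool 3. Mutant pool 1 was the lowest pool for 4 of 6 MCM genes by gene means. It was the highest of the 6 for all 8 heart muscle markers (11.9% of all genes). The median of these markers there was 2.13, against -0.29 to 0.01 in the other pools. Mutant pool 1 was also the highest for 5 of 7 primitive blood markers (median 0.19) and for 5 of 8 yolk sac endoderm markers (median 0.14). Early neuron markers ranged from -0.04 to 0.04 over the 6 pool medians, and endothelial markers from -0.09 to 0.20, highest in mutant pool 2.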

How the data were processed

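The authors deposited linear values, described as ratios of each probe set to the median of its 6 values. From the values, this median is 1 within 0.0011 for 92.8% of 22626 probe sets and below 1 for the others. It is below 1 for 3 of 70 member probe sets, of Cdt1 (0.9495), Tyms (0.7985) and Foxm1 (0.824), which lowers the ratios of these genes in all pools. The submitters' processing notes name RMA and MAS5, without saying what each was used for. Summarisation, array scaling and absolute level are therefore unknown. The number of arrays limits the precision of every value.

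After 64 control probe sets were left out, log2 ratios of the 20380 probe sets with exactly 1 symbol were averaged into 12393 genes. The 2 genotypes were compared gene by gene with the moderated two-sided test of limma 3.58.1 (R 4.3.3), with no covariates, and p-values were adjusted by Benjamini-Hochberg across the 12393 genes, with a threshold of 0.05. The fit was tested on simulated data, in which genes varied independently, each with its own spread between pools. With 200 of 12393 genes changed 1.5-fold, 33.5% of the 200 passed the threshold, and with 2-fold changes 84.0% did. With 3 against 3 pools an exact permutation test cannot go below 0.10, so none was used.

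Members given pool by pool are the 3 highest and the 3 lowest differences of each group, and Cdk1 for its lack of overlap. Gmnn was added after its values were seen. Other cell cycle genes named are the 3 highest and the 3 lowest. The members, lists and marker genes were chosen with earlier results of these data known. Motif searches ran in Python 3.11.15 and plots in matplotlib 3.10.9.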

Additional observations from a re-analysis of the deposited data

How the results depend on the processing

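No member passed the adjusted threshold in limma under any alternative tried. Counts of all genes past the threshold were 2 with quantile normalization, with arrays centred on their median, with probe sets of median 1 only and with trend and robust variances, and 3 with array weights. They ranged from 1 to 2 when single pools were left out, with 2 without wild-type pool 3. Members at an unadjusted p under 0.05 numbered 1 with quantile normalization (Ccne1; 1.77% of all genes), 2 with array weights (Ccne1 and Mki67; 7.48% of all genes) and 0 to 3 with a pool left out. The 3 were Ccne1, Cdc25c and Gmnn, higher in the mutant, without wild-type pool 3 (3.55% of all genes), and Ccne2, lower in the mutant at -0.52, was the 1 without wild-type pool 1 (3.13% of all genes). Members without overlap numbered 3 where any single probe set sufficed (7.92% of all genes) and 1 to 5 with a pool left out, which leaves fewer pools to overlap (9.80% to 18.3% of all genes). Of these, 5 were without wild-type pool 3 (18.3% of all genes) and 4 without wild-type pool 1 (15.2% of all genes). Members lower in the mutant numbered 15 with array weights, which rest mostly on wild-type pool 2 (weight 5.26), 7 to 29 with a pool left out, and 5 without wild-type pool 3 and mutant pool 1, a pair left out after the data were seen. Of the settings applied to the pools after the data were seen, the median gap between wild-type pools 3 and 1 was 0.12 with quantile normalization and 0.13 on the log2(value + 1) scale, which shrinks all differences. Correlations of deviations were 0.187, -0.00155 and 0.207 between same-numbered pools and ran from -0.203 to 0.122 between the others. The labels do not say whether same-numbered pools share a litter or day. With the replicate number as a block the median of the members was -0.03, with 0 of them past the threshold and 1 gene in all. The cause of these shifts was not tested.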
